A study of Chlorocebus aethiops with 12 samples.

Results

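The 10 transcripts described here belong to the insulin-to-FOXO and mTOR branch of growth factor signalling: the transcription factors FOXO1 (NM_002015), FOXO3 (NM_001455) and FOXO4 (NM_005938), the receptor substrates IRS1 (NM_005544) and IRS2 (NM_003749), the insulin receptor INSR (NM_000208), the PI3-kinase regulatory subunit PIK3R1 (NM_181523), and the stress-responsive mTOR brakes DDIT4 (NM_019058), DDIT4L (NM_145244) and SESN1 (NM_014454). Members were taken by record ID. The scanner files carry record IDs with no gene symbols, and the symbols came with the list of members. Of the 10 records, 9 had spots on the array, with 17 probes among 41000 distinct probes, and no spot carried the DDIT4L record. A total of 14 probes of 8 members were well above background on all 12 arrays and entered the tests, so the filter on dim probes did not favour any group. The remaining 3 probes, both of IRS1 and 1 of FOXO4, did not pass that filter.

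COS-1 cells, a fibroblast-like kidney line of the African green monkey, were transiently transfected with V5-tagged mouse CCRP and FLAG-tagged human glucocorticoid receptor (GR). The 4 groups of 3 arrays were Y30E receptor with 100 nM dexamethasone (Y30E-DEX), Y30E receptor with 0.1% DMSO (Y30E-DMSO), Y30F receptor with 100 nM dexamethasone (Y30F-DEX) and Y30F receptor with 0.1% DMSO (Y30F-DMSO), each treated for 6 h from 40 h after transfection. Every group carried both plasmids by its description, although another label names a single construct per mutant, and no group lacked the transfected receptor. Y30E puts glutamate and Y30F phenylalanine in place of a tyrosine of the receptor, and the series title speaks of N/C interaction of the receptor without saying which mutant has it. Cell type markers were not checked, because the files name no genes.

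In this pathway, insulin or IGF binding activates the receptor kinase, which phosphorylates IRS proteins. These recruit PI3-kinase, a heterodimer of a catalytic subunit and a regulatory subunit such as the products of PIK3R1. The lipid product activates AKT, which phosphorylates FOXO factors so that they leave the nucleus, and which also relieves the TSC1-TSC2 brake on the growth kinase complex mTORC1. FOXO factors in turn are known in other cells to activate genes of the same pathway, among them IRS2 and INSR. DDIT4 (also called REDD1) and its relative DDIT4L restrain mTORC1 through the TSC complex, and sestrins such as SESN1 restrain it through amino acid sensing. In skeletal muscle, glucocorticoids are known to raise DDIT4 and FOXO1, and Pik3r1 is a known GR target in mouse myotubes.

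Between 60.5% and 67.0% of the non-control spots of an array were well above background, none of them was saturated, and the 75th percentile of the processed signal lay between 706 and 876. Values below are relative signals, that is, a probe's processed signal as a multiple of its array's 75th percentile. The probes are human, so a probe was set only against itself between groups. Levels of different genes cannot be ranked this way. The arrays lay on 3 slides with 4 arrays each. All Y30E-DEX arrays were on slide 3, as was Y30E-DMSO replicate 3, and slide 2 held Y30E-DMSO replicates 1 and 2. Of the Y30F-DEX arrays, replicate 1 was on slide 1 and the rest on slide 2, and all Y30F-DMSO arrays were on slide 1. Nothing in the labels tells whether replicates came from separate cultures, and the p-values therefore reflect array-to-array spread that may be technical. In a population measured as a whole, more cells with a transcript and more transcript per cell cannot be told apart. As a measure of hormone response in the same fit, the transcript NM_016084 was 15.7-fold higher with dexamethasone in Y30E cells and 14.1-fold higher in Y30F cells (limma adjusted p = 1.17e-08 and 1.74e-08, in that order).

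Dexamethasone raised IRS2 with either receptor, FOXO1 in the average over both receptors, and FOXO4 with the Y30F receptor. The FOXO4 call held in 9 of 26 alternative analyses, the FOXO1 average in 21 of 24 and the IRS2 average in all 24. With slide as a fixed block the FOXO4 and FOXO1 calls, and that of IRS2 in Y30E, were lost. With Y30E, 1 of 8 tested members passed the threshold of an adjusted p of 0.05, higher, where 2.11% of all 20037 features passed in either direction and 1.49% were higher. With Y30F, 2 of 8 passed, both higher, against 1.82% of all features in either direction and 1.43% higher. In the average of both effects, 2 of 8 passed, both higher, against 3.77% and 2.7%. No member passed as lower with dexamethasone in any of the 3 comparisons. The median log2 change of the 8 members was 0.07 in Y30E, 0.22 in Y30F and 0.16 on average, while the median of all features was -0.000531, 0.02 and 0.01. All of these are small changes, with the highest fold among the members at 1.42.

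**Figure D1:**
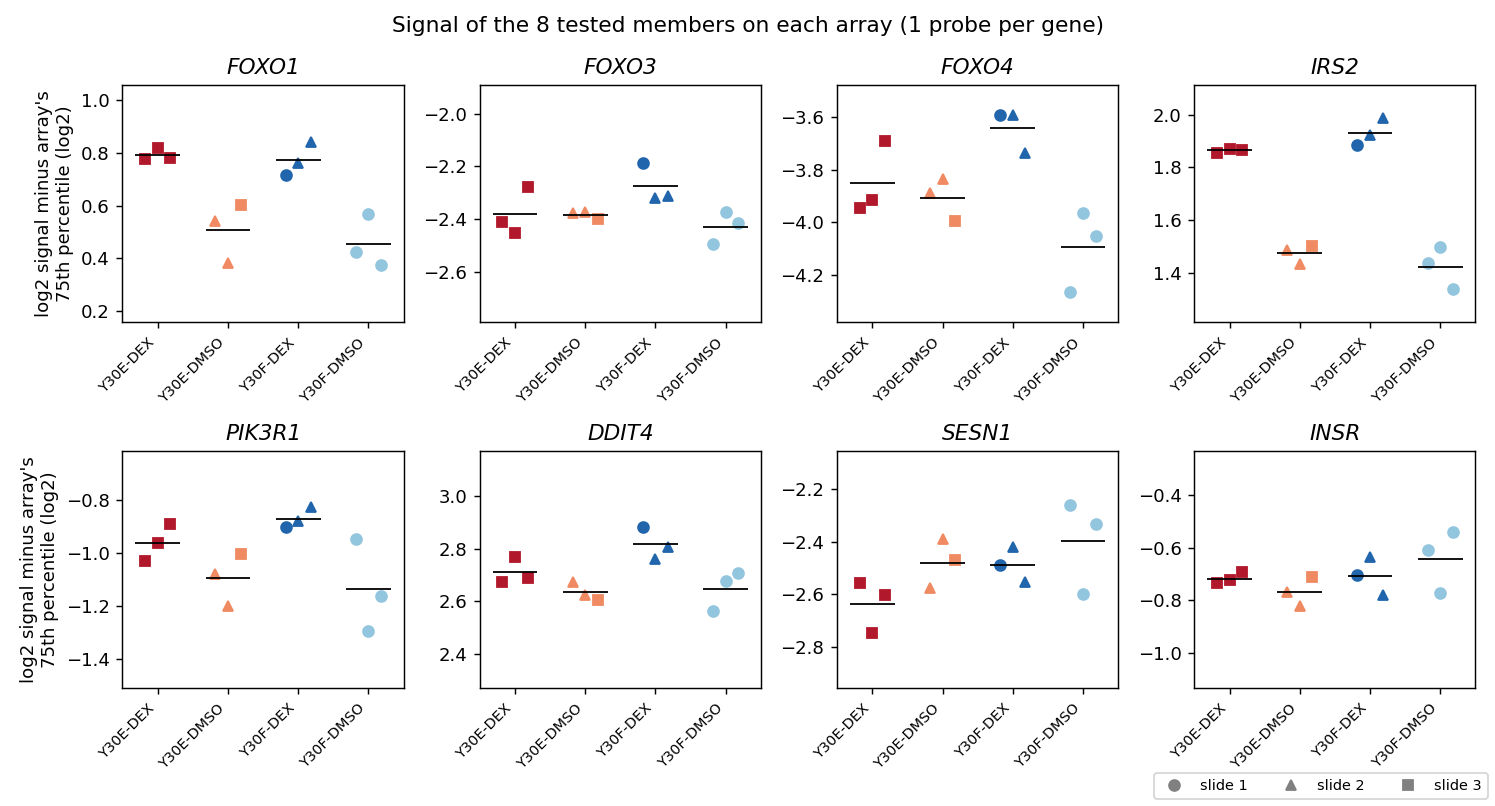
Each point is 1 array, placed by its log2 processed signal minus the 75th percentile of that array; black bars are means over 3 arrays, marker shapes are slides, and all panels span the same range of log2 units. For IRS2 and FOXO1 the 3 DEX arrays of each receptor lie above the 3 DMSO arrays; for IRS2 they read 3.62 to 3.65 against 2.70 to 2.83 times the 75th percentile in Y30E cells.

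INSR, the receptor kinase at the head of the pathway, had changes close to 0. Its relative signals were 0.601, 0.606 and 0.618 on the Y30E-DEX arrays, against 0.587, 0.565 and 0.610 on the Y30E-DMSO arrays. They were 0.613, 0.644 and 0.582 on the Y30F-DEX arrays, against 0.656, 0.585 and 0.687 on the Y30F-DMSO arrays. Groups overlapped with both receptors, and the average fold was 0.995 with a 95% confidence interval of 0.927 to 1.07 (limma adjusted p = 0.971).

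IRS1, a widely expressed receptor substrate, was at the limit of detection. Probe A_24_P802145 was well above background on 1 of 12 arrays (a Y30F-DMSO array), and A_24_P225679 on none. Over the 12 arrays they read 0.0174 to 0.0262 and 0.00858 to 0.0227, and no fold is given. These readings bound the signal of human probes on monkey RNA and do not rank IRS1 against IRS2.

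IRS2, the adaptor that carries the insulin signal to PI3-kinase in many tissues, rose with the smallest p-values among the 8 members. Its relative signals were 3.62, 3.65 and 3.65 on the Y30E-DEX arrays, against 2.80, 2.70 and 2.83 on the Y30E-DMSO arrays. In Y30F cells they were 3.69, 3.79 and 3.97 on the DEX arrays, against 2.70, 2.82 and 2.53 on the DMSO arrays. The groups did not overlap with either receptor, and every DEX array stood above every DMSO array of the whole series. The fold change was 1.31 in Y30E (95% confidence interval 1.21 to 1.42, limma adjusted p = 0.00288) and 1.42 in Y30F (1.32 to 1.54, adjusted p = 6.30e-04). On average over both receptors IRS2 rose 1.37-fold, a log2 change of 0.45 ± 0.04 (SE, 6 arrays against 6, limma adjusted p = 5.13e-05). By size this ranked 313th from the top of 20037 features, and by p-value 69th.

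The rise of the brightest IRS2 probe, A_24_P154037, was also measured between arrays of a single slide. Within slide 3 the Y30E fold was 1.29, from 3 DEX arrays and 1 DMSO array, and within slide 1 the Y30F fold was 1.38, from 1 DEX array and 3 DMSO arrays. On those slides alone neither effect passed. A fixed slide block gave these same folds, so the block and the single slides are not separate support. With that block the average effect passed (1.33-fold, limma adjusted p = 0.00694) and so did the Y30F effect (adjusted p = 0.0455), while the Y30E effect did not (adjusted p = 0.0991). Under a random slide block all 3 passed, the Y30E effect with an adjusted p of 0.00337. Leaving out any 1 array kept IRS2 past the threshold in all 3 comparisons. Those values of the average log2 change ran between 0.43 and 0.47. The log2 ratio of IRS2 to INSR within an array rose by 0.46 with dexamethasone, and that of IRS2 to FOXO1 by 0.15. Both had an exact permutation p of 0.005 (DEX labels shuffled within each receptor, 2-sided), the smallest that 400 relabellings can give, and an adjusted p of 0.0275 over 11 tests. The shuffle treats slides as exchangeable, and both ratios reuse the IRS2 values of the call above, so they are not separate support for it. Within slides the IRS2 to FOXO1 ratio moved by 0.17 in Y30E (slide 3) and 0.20 in Y30F (slide 1).

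The other probes for IRS2 were dimmer and gave less. Probe A_23_P53838 read 0.0966, 0.0788 and 0.106 on the Y30E-DEX arrays, against 0.0721, 0.0818 and 0.0767 on the Y30E-DMSO arrays, with overlap. In Y30F cells it read 0.0804, 0.103 and 0.105 with dexamethasone, against 0.0813, 0.0704 and 0.0832 with DMSO, again with overlap. Its average log2 change of 0.28 ± 0.09 did not pass (limma adjusted p = 0.161 among all probes). Probe A_24_P207003 read 0.246, 0.273 and 0.175 on the Y30E-DEX arrays and 0.277, 0.276 and 0.259 on the Y30E-DMSO arrays. In Y30F cells it read 0.193, 0.348 and 0.276 with dexamethasone, against 0.197, 0.216 and 0.183 with DMSO. Its log2 changes were -0.25 ± 0.21 in Y30E and 0.42 ± 0.21 in Y30F, neither past the threshold (limma adjusted p = 0.643 and 0.429). Relative to this probe, the bright IRS2 probe moved by 0.37 (log2) with dexamethasone, a difference that missed the threshold after adjustment (exact permutation test over DEX labels within each receptor, 2-sided, p = 0.045, adjusted p = 0.099 over 11 tests). Within slides, the bright probe moved further than A_24_P207003 by 0.55 in Y30E (slide 3) and 0.50 in Y30F (slide 1). Against A_23_P53838 these gaps were 0.08 and 0.42 in that order. The call for IRS2 rests on the bright probe.

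PIK3R1, the regulatory subunit that holds and stabilises the catalytic subunit of PI3-kinase, did not pass. It read 0.490, 0.514 and 0.539 on the Y30E-DEX arrays, against 0.473, 0.435 and 0.499 on the Y30E-DMSO arrays, with overlap. In Y30F cells it read 0.535, 0.544 and 0.564 with dexamethasone, against 0.519, 0.407 and 0.447 with DMSO. All Y30F-DEX arrays were the higher, but Y30F-DMSO replicate 1 came close to them. The average log2 change was 0.20 ± 0.06, a fold of 1.15 with a 95% confidence interval of 1.05 to 1.26 (limma adjusted p = 0.129). The average passed in 2 of 24 alternatives. These were leaving out that Y30F-DMSO replicate 1 (0.25, adjusted p = 0.0282) and array weights (0.21, adjusted p = 0.0264). With slide as a fixed block it was 0.14 (limma adjusted p = 0.594). The dimmer probe A_23_P144980 gave a similar average log2 change of 0.19 ± 0.08 (adjusted p = 0.323).

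Among the FOXO factors, FOXO1, the family member known for driving gluconeogenic and atrophy genes, was higher on every DEX array than on every DMSO array of the same receptor. Its relative signals were 1.71, 1.76 and 1.72 on the Y30E-DEX arrays, against 1.46, 1.30 and 1.52 on the Y30E-DMSO arrays. In Y30F cells they were 1.64, 1.69 and 1.79 with dexamethasone, against 1.34, 1.48 and 1.30 with DMSO. Taken over both receptors the rise was 1.23-fold (95% confidence interval 1.14 to 1.33, log2 change 0.30 ± 0.05, limma adjusted p = 0.00610). Within single receptors the changes were 0.28 ± 0.07 (log2) in Y30E and 0.32 ± 0.07 in Y30F, and neither passed (limma adjusted p = 0.0779 and 0.0548). A second probe, A_24_P22079, gave an average log2 change of 0.25 ± 0.05 that also passed among all probes (limma adjusted p = 0.0140), where 2.51% of 25570 probes passed as higher. Its DEX arrays too stood above its DMSO arrays with either receptor, at 0.332 to 0.342 against 0.261 to 0.315 in Y30E and at 0.351 to 0.362 against 0.280 to 0.301 in Y30F. On this probe every Y30E-DEX array was also below every Y30F-DEX array, a log2 difference of -0.08 ± 0.07 that did not pass (limma adjusted p = 0.617). With slide as a fixed block the average effect on FOXO1 was 0.23 ± 0.07 and did not pass (limma adjusted p = 0.198), while with slide as a random block it was 0.30 ± 0.05 and passed (adjusted p = 0.00660). With median centring it was 0.26 ± 0.06, or 0.29 above the median of all features, and missed the threshold (adjusted p = 0.0685). The Y30F effect on FOXO1 passed without any 1 of Y30F-DMSO replicate 2 (adjusted p = 0.0337), Y30F-DEX replicate 1 (0.0332), Y30E-DMSO replicate 2 (0.0372) or Y30E-DMSO replicate 3 (0.0497). It also passed with normexp (adjusted p = 0.0153), the filter on all 12 arrays (0.0468) and array weights (0.00741), and the Y30E effect passed with normexp (0.0459) and array weights (0.0161). These make 7 of 26 alternatives for the Y30F effect and 2 of 26 for the Y30E effect. With slide as a fixed block neither passed (limma adjusted p = 0.415 in Y30F and 0.758 in Y30E). Without Y30F-DEX replicate 1, 1367 of all features passed in Y30F in place of 365.

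FOXO4, another AKT-regulated member of the family, did not pass in Y30E cells and passed in Y30F cells, and the difference of these effects did not pass. Its brighter probe read 0.0650, 0.0663 and 0.0774 on the Y30E-DEX arrays, against 0.0675, 0.0700 and 0.0627 on the Y30E-DMSO arrays, which overlapped. On the Y30F-DEX arrays it read 0.0829, 0.0829 and 0.0750, against 0.0520, 0.0640 and 0.0603 on the Y30F-DMSO arrays, without overlap. The fold was 1.04 in Y30E (95% confidence interval 0.901 to 1.20, limma adjusted p = 0.835) and 1.37 in Y30F (1.19 to 1.58, adjusted p = 0.0387). The difference of the effects, Y30E minus Y30F, was -0.40 ± 0.13 (log2), with an unadjusted p of 0.0128 and a limma adjusted p of 0.339. It was -0.14 ± 0.13 with quantile normalization and -0.16 ± 0.09 with normexp. Of 26 alternatives, 9 kept the Y30F call. The Y30F change was 0.28 with quantile normalization (adjusted p = 0.233) and 0.14 with normexp (adjusted p = 0.374), with an added offset of 50 that shrinks changes of such dim probes. It was lost without any 1 of Y30F-DMSO replicate 1 (adjusted p = 0.120) or 3 (0.0939), Y30F-DEX replicate 2 (0.131) or 3 (0.0723), Y30E-DMSO replicate 1 (0.0673) or 2 (0.0579), and Y30E-DEX replicate 1 (0.0546) or 2 (0.0586). The average effect passed only without Y30F-DMSO replicate 2 (adjusted p = 0.0463). A second FOXO4 probe was well above background on 2 of 12 arrays and was not tested.

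FOXO3, the third factor and a known regulator of autophagy and cell death genes, did not pass. Its relative signals were 0.188, 0.183 and 0.206 on the Y30E-DEX arrays, against 0.193, 0.193 and 0.190 on the Y30E-DMSO arrays. They were 0.220, 0.200 and 0.201 on the Y30F-DEX arrays, against 0.177, 0.193 and 0.187 on the Y30F-DMSO arrays. The groups overlapped in Y30E and not in Y30F, and the average fold was 1.06 with a 95% confidence interval of 0.990 to 1.13 (limma adjusted p = 0.474). Across the family, the log2 ratio of FOXO1 to FOXO3 within an array moved by 0.22 with dexamethasone and that of FOXO3 to FOXO4 by -0.18. Neither passed after adjustment (exact permutation tests, 2-sided, p = 0.015 and 0.02, both 0.055 adjusted over 11 tests). Within slides the FOXO1 to FOXO3 ratio moved by 0.17 in Y30E (slide 3) and 0.02 in Y30F (slide 1). That of FOXO3 to FOXO4 moved by -0.13 and -0.26 in that order. The ratio of FOXO1 to FOXO4 moved by 0.05 on average (exact permutation p = 0.68). That average joins opposite values, 0.23 in Y30E and -0.14 in Y30F. Such ratios are free of a single scaling factor per array and treat slides as exchangeable, but they move with quantile normalization. In Y30F cells the log2 change with quantile normalization was 0.31 for FOXO1 and 0.28 for FOXO4, which turns the order of the 0.32 and 0.45 found without it.

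**Figure D2:**
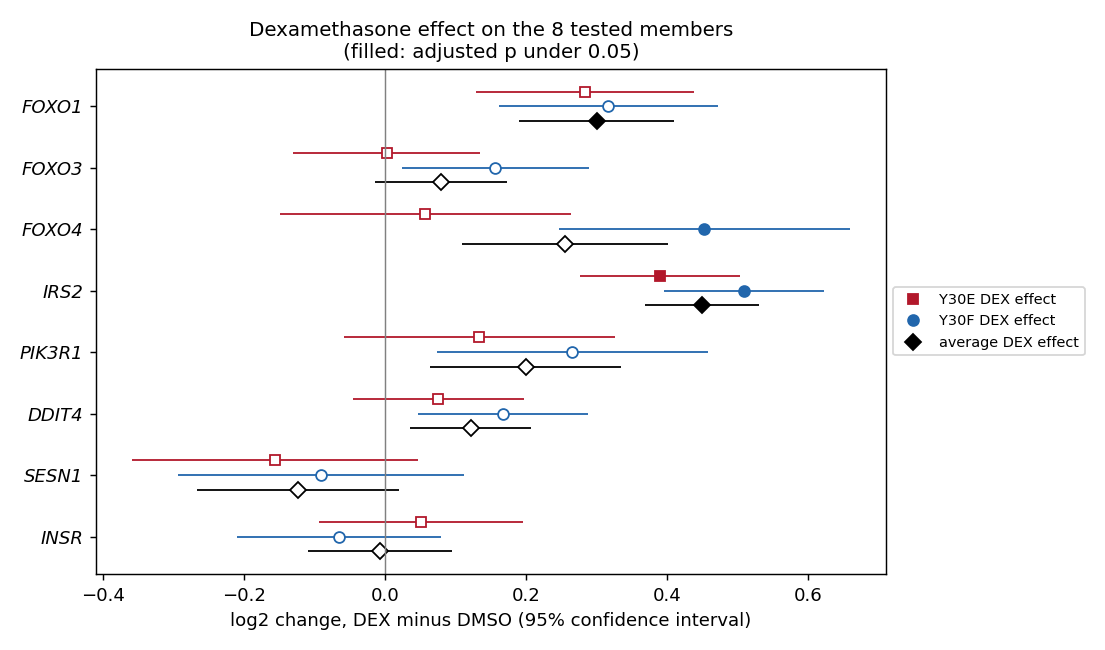
The log2 change (DEX minus DMSO) of each tested member is shown for Y30E cells (squares), Y30F cells (circles) and their average (diamonds), with 95% confidence intervals from limma and filled symbols where the adjusted p is under 0.05. IRS2 is filled in all 3 rows, FOXO1 in the average (0.30) and FOXO4 in Y30F (0.45), while the intervals of SESN1 and INSR include 0 throughout.

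DDIT4, the mTORC1 brake that glucocorticoids raise in muscle, gave a small change that did not pass. It read 6.39, 6.81 and 6.44 on the Y30E-DEX arrays, against 6.38, 6.17 and 6.09 on the Y30E-DMSO arrays. It read 7.37, 6.78 and 6.99 on the Y30F-DEX arrays, against 5.91, 6.39 and 6.53 on the Y30F-DMSO arrays. The DEX arrays lay above the DMSO arrays with either receptor, in Y30E by a margin of 6.39 against 6.38. The fold was 1.05 in Y30E (95% confidence interval 0.969 to 1.15) and 1.12 in Y30F (1.03 to 1.22), and 1.09 on average (1.03 to 1.15, limma adjusted p = 0.148). Its log2 change was above 0 in all 26 alternatives for each receptor and passed in none of them.

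SESN1, the sestrin that links stress to mTORC1, had values below 0 that did not pass. It read 0.170, 0.149 and 0.165 on the Y30E-DEX arrays, against 0.168, 0.191 and 0.180 on the Y30E-DMSO arrays. It read 0.178, 0.187 and 0.170 on the Y30F-DEX arrays, against 0.208, 0.165 and 0.199 on the Y30F-DMSO arrays. The groups overlapped with both receptors, and the average log2 change was -0.12 ± 0.06 (fold 0.918, 95% confidence interval 0.831 to 1.01, limma adjusted p = 0.457). A second probe, A_24_P346339, gave -0.09 ± 0.08 (adjusted p = 0.7004). Its Y30E-DEX arrays, at 0.0755, 0.0756 and 0.0614, were all below the Y30E-DMSO arrays, at 0.0875, 0.0780 and 0.0760. In Y30F cells its arrays overlapped, at 0.0828, 0.0797 and 0.0814 with dexamethasone, against 0.0845, 0.0696 and 0.0909 with DMSO, a log2 change of 0.0025 ± 0.11.

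**Figure D3:**
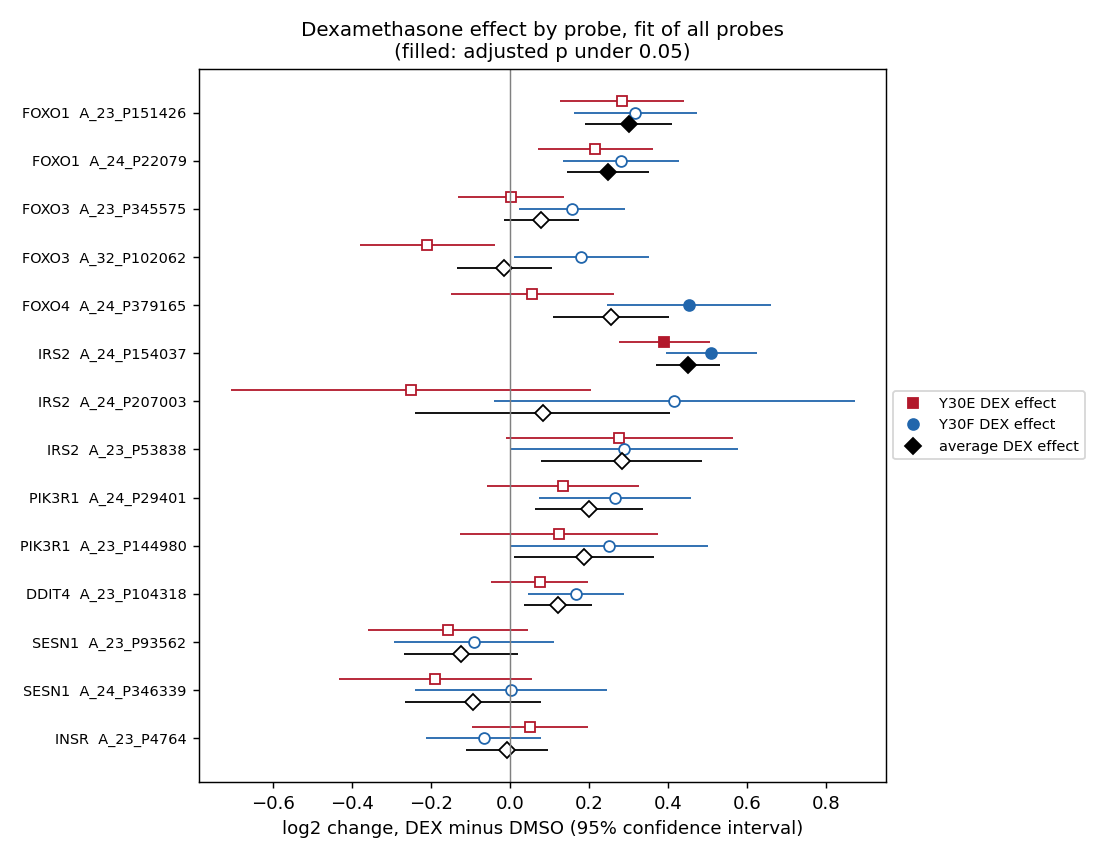
The log2 change (DEX minus DMSO) of each of the 14 tested probes is drawn with its 95% confidence interval, from the fit in which every probe is tested by itself; squares are Y30E, circles Y30F, diamonds the average, filled where the adjusted p is under 0.05. Both FOXO1 probes have a filled average (0.30 and 0.25), whereas only the bright one of the 3 IRS2 probes has filled symbols.

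Counting members whose DEX and DMSO arrays did not overlap, all of them higher with dexamethasone, gave 3 of 8 in Y30E (FOXO1, IRS2 and DDIT4) and 6 of 8 in Y30F (all but SESN1 and INSR). Among all features these shares were 11.3% and 9.85%. FOXO1, IRS2 and DDIT4 were in both counts, as were 3.37% of all features. All Y30F-DMSO arrays were on slide 1, whereas the Y30F-DEX arrays spanned slides 1 and 2. On slide 2 the Y30F-DEX values of the 8 members were higher than on slide 1 by -0.13 to 0.08 (log2). With slide as a fixed block, 0 of 8 members passed in Y30E and 1 of 8, IRS2, in Y30F, where 182 and 120 of all 20037 features passed. The Y30F log2 changes of FOXO4 (0.50), FOXO3 (0.24) and DDIT4 (0.23) were larger there than without the block. Those of IRS2 (0.46), FOXO1 (0.26) and PIK3R1 (0.23) were smaller, and those of SESN1 (-0.09) and INSR (-0.06) moved little. Under a random slide block (consensus correlation 0.03) the members called were those called without a block, IRS2 in Y30E and IRS2 and FOXO4 in Y30F.

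Whether the receptors differed was tested directly. No member passed for the difference of the effects (Y30E minus Y30F, limma, 0 of 8), with 1 unadjusted p under 0.05, that of FOXO4. None of all 20037 features passed either (0%), with 2255 at an unadjusted p under 0.05. Among all features that 0 became 1130 when Y30F-DEX replicate 1 was left out, 125 when Y30E-DMSO replicate 3 was left out and 1641 with array weights, with 0 of 8 members in each. For IRS2 the Y30E effect was 0.921 times the Y30F effect as a ratio of folds, with a 95% confidence interval of 0.824 to 1.03, and for FOXO1 it was 0.977 times (0.839 to 1.14). For DDIT4 the ratio was 0.938 (0.833 to 1.06), and for INSR it was 1.08 (0.941 to 1.25). The intervals were wider for PIK3R1, with a ratio of 0.913 (0.756 to 1.10), and for SESN1, with 0.956 (0.783 to 1.17). These intervals leave out offsets between slides. A difference above 0 was found for 1 of 8 members, INSR, and for 46.1% of all features. That count was 2 with quantile normalization and 7 with median centring, which moved the median of all features to 0.17, and relative to that median INSR alone was above 0. FOXO3, whose 2 probes both read higher in Y30F-DEX than Y30F-DMSO, had a ratio of 0.899 (0.789 to 1.02).

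Between receptors under dexamethasone, 0 of 8 members passed (limma), and 0.015% of all features did. An unadjusted p under 0.05 was found for 1 of 8 members, FOXO4, and for 2729 of all 20037 features. IRS2 and SESN1 were lower on all Y30E-DEX arrays than on any Y30F-DEX array, 2 of 8 members against 9.1% of all features. For IRS2 that separation was 3.65 at most against 3.69 at least, a log2 difference of -0.07 ± 0.05 (adjusted p = 0.595). Its dimmer probes overlapped. The dimmer probes PIK3R1 A_23_P144980 and SESN1 A_24_P346339 were also lower on all Y30E-DEX arrays, as was FOXO1 A_24_P22079 above. Their log2 differences were -0.18 ± 0.11 for PIK3R1 and -0.21 ± 0.11 for SESN1, and neither passed among all probes (limma adjusted p = 0.526 and 0.447). Under DMSO 0 of 8 members passed, and 0.00998% of all features did. The unadjusted p was under 0.05 for 2777 of all 20037 features, and for no member on the probe kept per record. On that probe no member separated the DMSO groups, whereas 20% of all features did in 1 direction or the other. The dimmer probes FOXO3 A_32_P102062 and IRS2 A_24_P207003 were higher on every Y30E-DMSO array than on any Y30F-DMSO array, by 0.23 ± 0.08 and 0.45 ± 0.21 (log2), and neither passed among all probes (unadjusted p = 0.0140 and 0.0528, limma adjusted p = 0.265 and 0.389). These comparisons use the same arrays as the dexamethasone effects, and no slide held both receptors under the same treatment. With slide as a fixed block the IRS2 difference was -0.13 ± 0.10 under dexamethasone and -0.03 ± 0.10 under DMSO, and neither passed (limma adjusted p = 0.993 and 0.957). With median centring INSR passed under DMSO, as lower in Y30E-DMSO (-0.31, limma adjusted p = 0.0497), but that scaling moved the median of all features to -0.16 in this comparison. Relative to that median the INSR difference was -0.15.

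**Figure D4:**
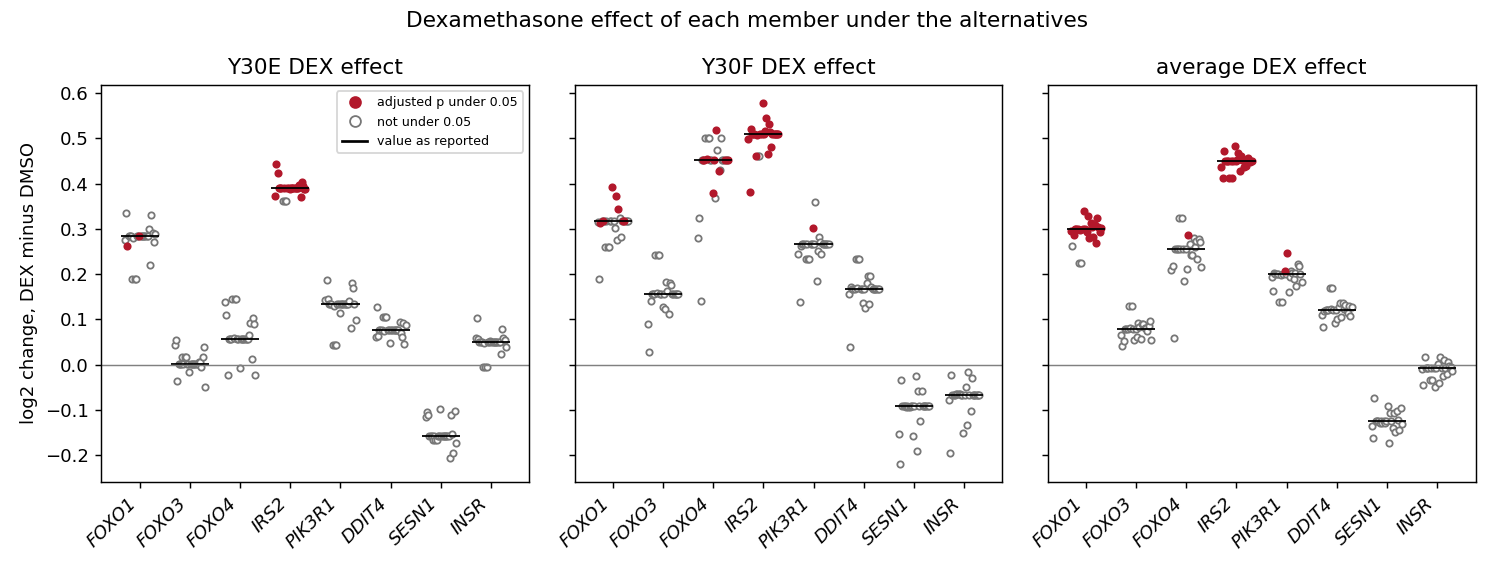
Each dot is the log2 change (DEX minus DMSO) of a member under 1 alternative setting or with 1 array left out, red where its adjusted p is under 0.05, and black bars are the values as reported. IRS2 stays between 0.36 and 0.44 in Y30E and between 0.38 and 0.58 in Y30F, and PIK3R1, DDIT4, FOXO1 and IRS2 have no dot below 0.

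Features with a pattern like that of IRS2 and of SESN1, the members with the most positive and most negative average change, were looked up by the root mean square difference of 12 centred array values. The 3 nearest to IRS2 differed from it by 0.06 (log2) each, against a median of 0.26 over all features, and their average dexamethasone effects were between 0.39 and 0.47. The 3 nearest to SESN1 differed from it by 0.05 to 0.06, against a median of 0.18, and none of these 3 passed. These features were picked for likeness on the same 12 arrays, so a small difference and a similar dexamethasone effect follow from the choice. The files give record IDs and no gene names for these 6 features.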

How the data were processed

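Cy3-labelled RNA of 12 samples was read on 1-colour human arrays of the 4x44 format, 1 array each, per the labels' protocols. The deposited intensity (processed green signal) comes from Agilent Feature Extraction version 12, per the submitters' processing notes. Background subtraction and detrending were applied within arrays, with no scaling between arrays, per the file headers. Deposited spot flags were also used. The series table equals the scanner values (0 differences).

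Control spots (1639 of 45015) and outliers (89 to 154 per array) were left out, and each array's 75th percentile was subtracted from its log2 intensity. A probe stayed in if every array of some group had at least 0.5 of its spots well above background (25570 probes), and the brightest probe per record gave 20037 features. No member spot was an outlier. Group means (4) were fitted with lmFit and tested with eBayes in limma 3.58.1 under R 4.3.3, with p-values adjusted by Benjamini-Hochberg over the features in each of 6 comparisons. Second probes come from a fit of all 25570 probes. Ratios of 2 probes used an exact permutation test of DEX labels within each receptor, a test added to the plan. The number of arrays limits the precision. Scripts were checked on simulated data.

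Alternatives covered scaling, background, filters, all probes, slide (statmod 1.5.0 for the random block), the replicate block, array weights, the compared groups alone and leaving out arrays. Normexp used the median signal. The labels give no pairing by replicate number. Members and lists were chosen with earlier results of these data known. Named are all members and the anchor NM_016084. Planned lists of other pathway genes, further anchors and cell markers were set by symbol and could not be matched, because no table pairing symbols with record IDs was used here.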

Additional observations from a re-analysis of the deposited data

Results flagged for a closer look

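A dim second probe for FOXO3, A_32_P102062, moved in opposite directions with the receptors: every Y30E-DEX array was below the Y30E-DMSO mean and every Y30F-DEX array above the Y30F-DMSO mean. It read 0.0903, 0.0866 and 0.107 times the 75th percentile on the Y30E-DEX arrays, against 0.113, 0.106 and 0.107 on the Y30E-DMSO arrays. It read 0.104, 0.107 and 0.105 on the Y30F-DEX arrays, against 0.0870, 0.0964 and 0.0957 on the Y30F-DMSO arrays. Its groups overlapped in Y30E and not in Y30F. Y30E minus Y30F was 0.23 (log2) under DMSO and -0.16 under dexamethasone. The log2 changes were -0.21 in Y30E and 0.18 in Y30F, and the difference of -0.39 did not pass (limma adjusted p = 0.328 among all probes). The brighter FOXO3 probe showed 0.00198 in Y30E and 0.16 in Y30F.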

How the results depend on the processing

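Of 1200 values of the 8 members under the alternatives, 1161 stayed on the same side of the threshold, 25 lost a call, 14 gained one and 0 called values changed sign, while 49 uncalled values did. For the Y30F effect, the count of members past the threshold (2) became 1 with quantile normalization, median centring, no filter, slide as a fixed block, the replicate block or the compared groups alone. It became 0 on slide 1 alone or without slide 2, 3 with the filter on all 12 arrays, and 4 with array weights, where 1252 of all features passed in Y30F and 1937 in Y30E. For the Y30E effect (1) it became 2 with normexp or array weights, and 0 with slide as a fixed block, on slide 3 alone or without slide 2. The average effect (2) gave 1 with median centring, slide as a fixed block or without slide 2, and 3 with array weights. Y30E against Y30F under DMSO (0) gave 1 with median centring. Leaving out 1 array gave 1 to 3 members for Y30F, 1 for Y30E, 2 to 3 for the average and 0 for the other comparisons. Slide as a random block left the members called in all 6 comparisons as they were. The fixed slide block and the slide subsets rest each effect on fewer arrays, and for IRS2 they gave log2 changes of 0.36 in Y30E and 0.46 in Y30F. The cause of the other changes was not tested. Of 18 pairs of arrays with the same number, 2 had deviations from their group means that correlated over 0.1 (range -0.43 to 0.27). With group means of 3 arrays, such correlations cannot tell whether the numbers pair the arrays. Under the replicate block the Y30F call of FOXO4 was lost (limma adjusted p = 0.0800) and no other member's call in the dexamethasone effects changed. That block left 272 features called in Y30F instead of 365, and 308 instead of 423 in Y30E. With slide as a fixed block these counts were 120 and 182. Over all alternatives other than leaving out 1 array, the features called ranged over 6 to 1252 in Y30F, 47 to 1937 in Y30E, 202 to 1451 on average, 0 to 1641 for the difference of effects, 0 to 1216 under DEX and 0 to 1578 under DMSO. Leaving out 1 array gave 207 to 1367, 184 to 596, 555 to 822, 0 to 1130, 0 to 66 and 0 to 598 in that order. With median centring the median of all features moved to -0.11 in Y30F and 0.05 in Y30E, and relative to it IRS2 changed by 0.49 in Y30F. The IRS1 probes and the second FOXO4 probe did not pass the background filter. The tested dim probes of FOXO4, IRS2 and FOXO3 were well above background on all 12 arrays. Whether low signal affected their changes was not tested.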
